A study of Homo sapiens with 6 samples.

Results

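The genes described here encode the collagens, the laminins and the proteins that link and crosslink them, in NCI-H1299 cells with and without overexpression of MTSS1. They were chosen by name among protein-coding genes of the count table: every collagen chain (symbols of the form COL, number, A, number), every laminin alpha, beta and gamma chain, both nidogens (NID1, NID2), perlecan (HSPG2), agrin (AGRN), and the lysyl oxidases LOX and LOXL1 to LOXL4. This gave 65 genes of the 64253 identifiers in the table, 19657 of which are protein-coding. The set holds 44 collagen genes, 12 laminin genes, 4 linker genes and 5 lysyl oxidase genes.

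A basement membrane is the thin sheet of extracellular matrix on which epithelial and endothelial cells rest. It is built from a network of laminin trimers, each of 1 alpha, 1 beta and 1 gamma chain, and a network of collagen IV, joined by nidogens and the heparan sulfate proteoglycans perlecan and agrin. Collagens of other types form fibrils, beaded filaments or membrane-bound trimers, and lysyl oxidases crosslink collagen and elastin outside the cell. In the lung, such a sheet separates the epithelium from the stroma, and carcinoma cells both make and cross it.

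NCI-H1299 is a human non-small cell lung cancer line. MTSS1 is a membrane-binding scaffold protein that acts on the actin cytoskeleton. Wild type cells (3 libraries) were compared with cells that carried a plasmid for mCherry-tagged MTSS1 (3 libraries), and both were grown in DMEM with serum. The plasmid cells went through hygromycin selection and flow sorting, per the labels' protocols, which also name HEK293T cells in connection with the stable transfection. None of the 6 libraries is labelled as carrying a control plasmid, so MTSS1 itself, the tag and plasmid, the selection and the sorting cannot be told apart. The labels do not state that replicates were separate cultures, and p-values then measure only the spread between these libraries, which may be technical.

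Libraries held between 13883380 and 29479453 counts. MTSS1 itself ranged from 18.0 to 24.3 CPM (counts scaled to library size with TMM) without the plasmid and from 544 to 568 CPM with it. The first principal component, with 34.8% of the variance, set replicate 1 of both groups apart from the other 4 libraries, so results are also given without that pair. Of 13 markers of lung epithelium and adenocarcinoma, 9 stayed under 1 CPM in every library and 4 (SFTPA1, SFTPA2, SFTPB, SFTPD) had no count. The summed level of that list was 571 to 853 CPM without and 259 to 470 CPM with MTSS1 overexpressed. Nearly all of it was KRT8 and KRT18, both lower in every overexpressing library. KRT8 was called (log2 fold change -1.74, edgeR adjusted p = 0.011) and KRT18 was not (-0.80, 0.061). NKX2-1 (means 1.20 and 2.63 CPM), KRT7 (0.857 and 1.77) and EPCAM (0.557 and 0.881) were higher in every overexpressing library and were not called. The part of these shifts in the results below was not tested. Of 8 fibroblast markers, 6 stayed under 1 CPM in every library, and the list summed to 92.0 to 117 CPM without and 77.1 to 95.4 CPM with it, nearly all of it FBN1. The 5 endothelial markers summed to 2.45 to 4.62 and 1.80 to 2.35 CPM, and the 5 leukocyte markers to 1.86 to 4.80 and 1.40 to 3.88 CPM. In bulk RNA, fewer cells that express a gene and less RNA per cell cannot be told apart.

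The collagen and laminin genes moved in both directions. Of the 65 members, 38 passed the filter on low counts and were tested with edgeR's quasi-likelihood test, and 27 were too low to test. At a Benjamini-Hochberg adjusted p under 0.05 over all genes tested, COL6A1 and COL6A2 rose in the overexpressing cells, and LAMB3, LAMA4, COL13A1, COL4A6 and COL11A1 fell. That is 7 of 38 members, or 18.4%, where 4.28% of all 16091 genes tested were called (1.82% higher and 2.45% lower). COL11A1 passed the filter on low counts through the wild type libraries alone, so its place among the 7 supports nothing further. COL4A6 reached the filter's level in 3 wild type and 2 overexpressing libraries. It also needed the wild type libraries, where it is high, so the same limit holds for COL4A6. The CPM ranges of the groups lay apart for 15 members, 6 higher and 9 lower, or 39.5%, beside 25.5% of all genes tested. The log2 fold change was above 0 for 21 tested members and below 0 for 17. Its median was 0.11, beside 0.0046 over all genes tested.

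**Figure D1:**
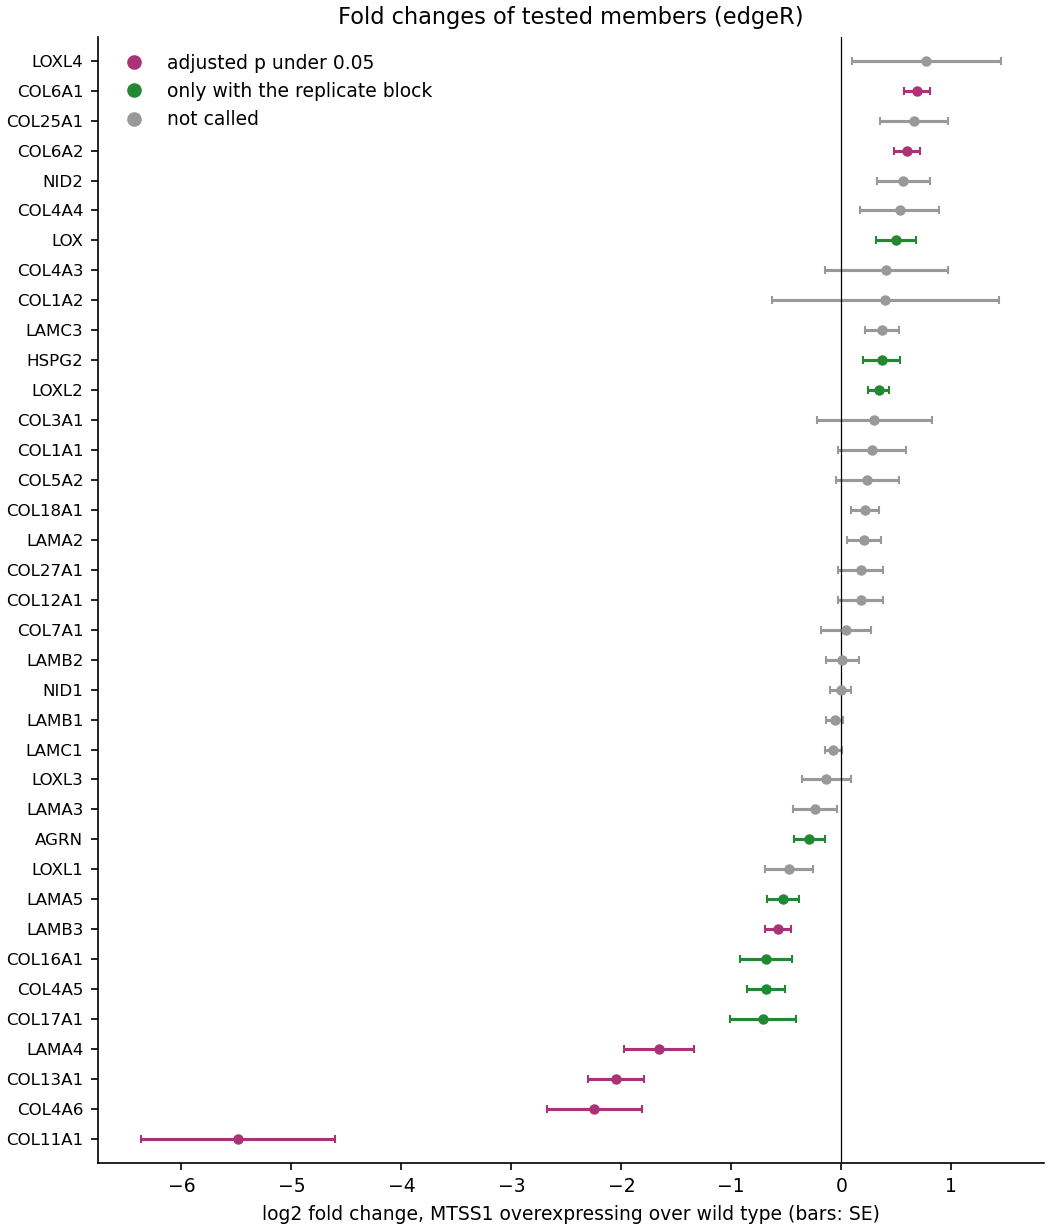
Log2 fold change of overexpressing over wild type cells with its standard error for tested members, in order of size, with called members in purple and members called only with the replicate block in green. COL6A1 (0.69) and COL6A2 (0.60) are the called members to the right of 0, and the fitted value of COL11A1 at the far left depends on edgeR's prior count, since the overexpressing libraries held 2 counts in all.

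The library titles carry numbers that form 3 neighbouring pairs, each with 1 wild type and 1 overexpressing library. A fit with these pairs as a replicate block called 16 of the 38 members, or 42.1%, 5 higher and 11 lower, where it called 22.7% of all genes tested. It kept all 7 calls above. Among the 9 members it added were LOX, LOXL2 and HSPG2 (higher) and LAMA5, COL17A1, COL16A1, COL4A5 and AGRN (lower). Each of these 9 moved the same way in all 3 pairs. Where the blocked fit changes a call, its value stands beside the gene below.

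Per length of exon, the set was led by a handful of genes. COL6A2 had a mean level of 27.2 RPKM (counts scaled to library size and exon length) over the 6 libraries, LOXL2 23.5, LAMC1 23.0, COL6A1 21.7, LAMB3 16.5, LAMB1 15.2, LAMB2 11.2 and AGRN 10.0 RPKM. Lower levels were those of COL12A1 (8.63 RPKM), COL18A1 (7.87) and NID1 (7.30). By RNA, the profile is one of COL6A1 and COL6A2, laminin beta and gamma chains and a crosslinking enzyme, with few counts of collagen IV. Of the 44 collagen genes, 25 stayed under 1 CPM in every library.

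**Figure D2:**
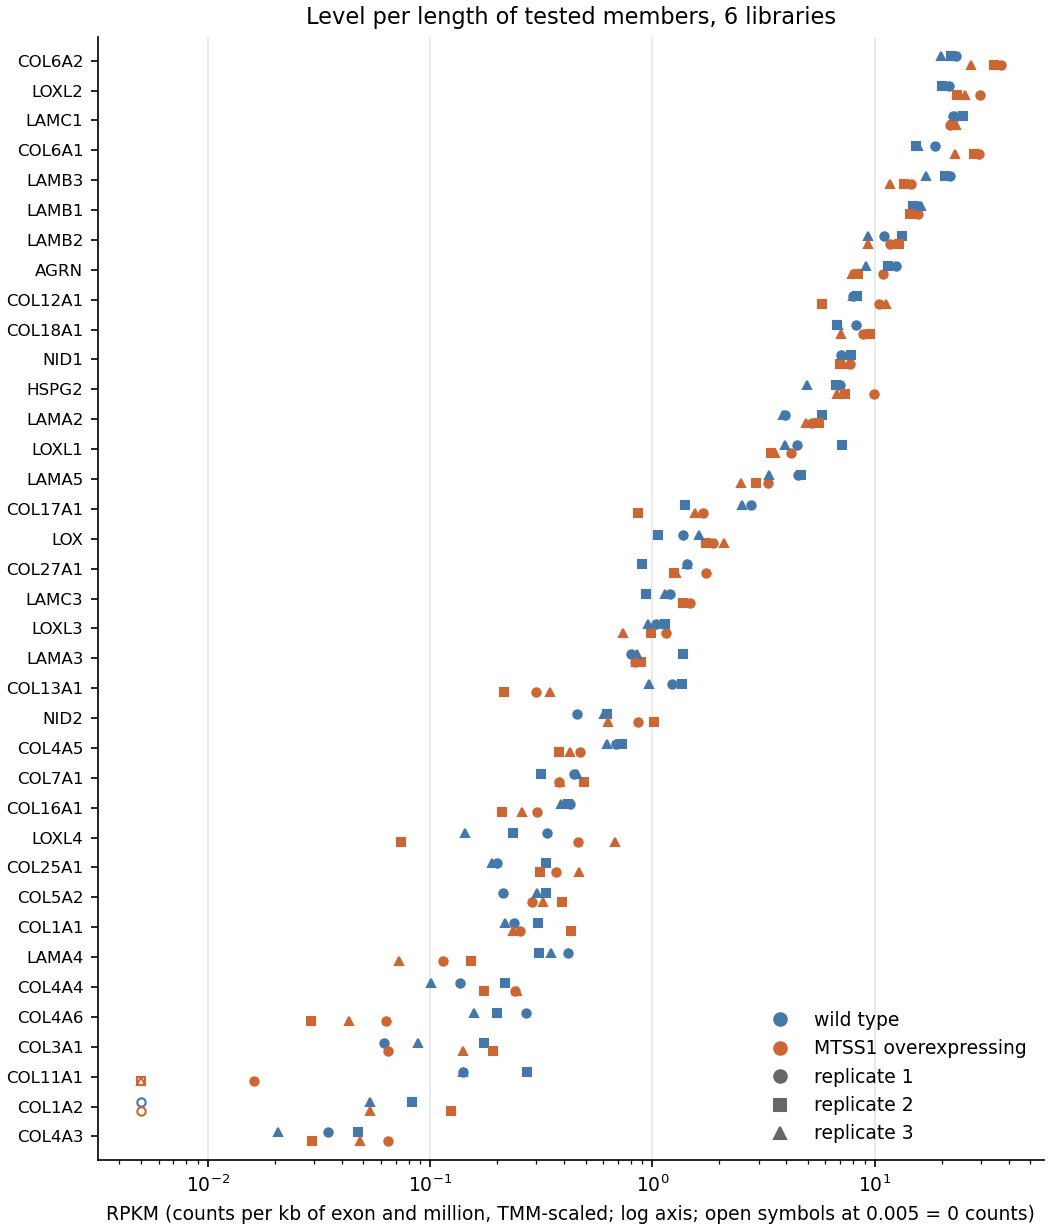
Level per length (RPKM, log axis) of tested members in each wild type (blue) and overexpressing (orange) library, with counts of 0 as open symbols at the left edge. COL6A2 (mean 27.2 RPKM), LOXL2 (23.5) and LAMC1 (23.0) head the order, and the colours separate for COL6A1 and COL6A2.

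Collagen VI forms beaded filaments next to basement membranes from alpha 1, alpha 2 and 1 more chain. COL6A1 (ENSG00000142156, chromosome 21, 45981737 to 46005050, GRCh38) was counted at 100, 82.0 and 83.5 CPM in wild type replicates 1 to 3, against 157, 150 and 122 CPM in overexpressing replicates 1 to 3, the order used for all values below. The groups did not overlap. It rose 1.62-fold (log2 fold change 0.69 ± 0.12 SE, edgeR adjusted p = 0.014). COL6A2 (ENSG00000142173, chromosome 21, 46098097 to 46132849) stood at 125, 119 and 107 CPM in wild type libraries, against 199, 186 and 146 CPM with MTSS1 overexpressed. Again every overexpressing library was above every wild type library, and replicate 3 was the lowest of each group for COL6A2. It rose 1.51-fold (log2 fold change 0.60 ± 0.12, edgeR adjusted p = 0.027). Per length, the 2 genes made up 26.7% ± 1.30 and 35.0% ± 1.33 of all collagen RPKM in wild type cells (SD, n = 3), and 32.1% ± 1.47 and 39.3% ± 2.61 in overexpressing cells.

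The remaining chain was nearly absent from the counts. COL6A3 had 0, 9 and 13 counts in wild type libraries, against 0, 7 and 7 with MTSS1 overexpressed, too few to be tested. COL6A5 had 1 count in all and COL6A6 had 2. Without replicate 1 of both groups the edgeR adjusted p was 0.043 for COL6A1 and 0.12 for COL6A2. When 1 library was left out at a time, COL6A1 lost its call without wild type replicate 2 or 3 or overexpressing replicate 2 (largest adjusted p 0.072). COL6A2 lost its call without wild type replicate 2 or 3 or overexpressing replicate 1 or 2 (largest 0.12). Measured against the median change of the 50 nearest tested genes on the chromosome, COL6A1 stayed past the threshold (log2 0.59, adjusted p = 0.038) and COL6A2 did not (0.50, 0.075). That fit called 2.05% of all genes tested, 0.777% higher and 1.27% lower, and 1 member higher and 4 members lower.

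COL6A1 and COL6A2 lie on the same strand, with 93047 bases between the end of the former and the start of the latter. The sequence before the start of COL6A2 is shown because this pair moved together, taken from RefSeq (GRCh38.p14), chr21:46097862-46098096, plus strand, cut where the first annotated exon begins. RefSeq's promoter table matched 48 of the 65 members and had no entry for COL6A1. Capitals mark matches, on either strand, to the TATA box motif TATAAA, to the box named CCAAT, to the GC box motif GGGCGG, to the AP-1 motif TGANTCA or to the NF-kB site.
COL6A2: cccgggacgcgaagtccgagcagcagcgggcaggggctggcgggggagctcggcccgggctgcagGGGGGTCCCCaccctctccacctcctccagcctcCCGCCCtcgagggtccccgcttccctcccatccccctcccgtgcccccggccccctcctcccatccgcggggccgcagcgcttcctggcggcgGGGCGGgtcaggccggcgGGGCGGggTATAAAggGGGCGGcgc
The capitals are a TATAAA 32 bases before the RefSeq start, 4 GGGCGG matches and 1 NF-kB site match. Of 35116 promoter windows of 250 bases, 10.7% hold TATAAA, 42.6% GGGCGG, 5.21% the NF-kB site, 32.0% CCAAT and 6.57% TGANTCA. The matches can overlap, and each describes letters in a window and not a bound site.

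Collagen IV, the network collagen of basement membranes, was counted at low levels, and its pairs of genes differed. COL4A1 and COL4A2, which encode the chains of most basement membranes, had 22 and 8 counts over the wild type libraries and 6 and 4 over the overexpressing libraries, too few to test. COL4A6 (ENSG00000197565, chromosome X, 108155607 to 108439497) stood at 2.49, 1.85 and 1.46 CPM in wild type libraries, against 0.588, 0.269 and 0.40 CPM with MTSS1 overexpressed. It was lower in all 3 overexpressing libraries and fell 4.74-fold (log2 -2.25 ± 0.43, edgeR adjusted p = 0.024). COL4A5 (chromosome X, 108439844 to 108697545), its neighbour on the other strand, stood at 8.11, 8.63 and 7.43 CPM in wild type libraries, against 5.58, 4.50 and 5.04 CPM with MTSS1 overexpressed. These ranges did not overlap either, but the call was missed (log2 -0.68 ± 0.17, edgeR adjusted p = 0.057) and was made with the replicate block (0.0086). COL4A3 (log2 0.41 ± 0.56, adjusted p = 0.76) and COL4A4 (0.53 ± 0.36, 0.47) had values above 0 with overlapping ranges. COL4A6 lost its call without any 1 library other than overexpressing replicate 1 (largest adjusted p 0.090) and without replicate 1 of both groups (0.12). It reached the level of the filter on low counts in 3 wild type and 2 overexpressing libraries. The test of COL4A6 thus depends on the group where it is high and supports nothing further.

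The 6 collagen IV genes form 3 head-to-head pairs that start on opposite strands close to each other. RefSeq starts of COL4A5 and COL4A6 lie 380 bases apart, those of COL4A1 and COL4A2 127 bases and those of COL4A3 and COL4A4 419 bases. The windows before COL4A5 (chrX:108439588-108439837, plus strand) and COL4A6 (chrX:108439498-108439708, minus strand) are shown because both genes stood lower in the overexpressing cells. They share 121 bases, and the capitals mark the same motifs as above.
COL4A5: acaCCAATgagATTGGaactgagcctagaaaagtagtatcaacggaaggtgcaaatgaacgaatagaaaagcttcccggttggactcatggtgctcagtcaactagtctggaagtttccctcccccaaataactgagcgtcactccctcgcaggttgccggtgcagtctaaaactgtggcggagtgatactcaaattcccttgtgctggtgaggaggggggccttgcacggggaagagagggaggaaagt
COL4A6: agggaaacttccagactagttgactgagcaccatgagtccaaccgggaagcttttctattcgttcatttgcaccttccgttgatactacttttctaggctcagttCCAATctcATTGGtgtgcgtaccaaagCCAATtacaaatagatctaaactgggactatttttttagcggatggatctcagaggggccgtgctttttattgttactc
The shared stretch holds a CCAAT in each orientation, 247 and 239 bases before the COL4A5 start and 145 and 137 bases before the COL4A6 start. COL4A6 has another CCAAT match 118 bases before its start.

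COL13A1 encodes a transmembrane collagen found at sites where cells attach to matrix. Its fall held whichever of the 6 libraries was left out. COL13A1 (ENSG00000197467, chromosome 10, 69801867 to 69964275) stood at 7.21, 8.0 and 5.71 CPM in wild type libraries, against 1.76, 1.27 and 2.04 CPM with MTSS1 overexpressed. All overexpressing libraries were far below the lowest wild type library. The level fell 4.13-fold (log2 -2.05 ± 0.25, edgeR adjusted p = 0.0041), the smallest adjusted p among the members. The largest adjusted p with 1 library left out was 0.022, and it was 0.040 without replicate 1 of both groups. Of the other transmembrane collagens, COL17A1, a hemidesmosome component, stood at 19.6, 9.92 and 17.8 CPM against 12, 6.11 and 10.9 CPM. Its ranges overlapped (log2 -0.71 ± 0.30, edgeR adjusted p = 0.22), but within every pair the overexpressing library was the lower, and the replicate block called it (0.0012). COL25A1 had overlapping ranges (log2 0.66 ± 0.31, adjusted p = 0.28), and COL23A1 had no count.

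The window before COL13A1 is shown because its call held in every fit that left out a library (RefSeq, GRCh38.p14, chr10:69801656-69801866, plus strand, capitals as above).
COL13A1: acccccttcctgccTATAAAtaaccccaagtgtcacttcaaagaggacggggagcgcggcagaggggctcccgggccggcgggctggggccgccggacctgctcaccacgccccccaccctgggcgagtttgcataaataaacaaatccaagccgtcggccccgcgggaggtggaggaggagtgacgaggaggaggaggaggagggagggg
It holds a TATAAA 236 bases before the RefSeq start and no match to the other 4 motifs.

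COL11A1, a minor chain of cartilage-type fibrils, went from low to nearly uncounted. It had 24, 75 and 34 counts in the wild type replicates (1.27, 2.48 and 1.28 CPM) and 2, 0 and 0 counts in the overexpressing libraries. Wild type replicate 2 was the highest, and every overexpressing library was below every wild type library. Scaled by library size, the ratio of pooled counts was 56.7 in favour of wild type, with an exact 95% interval of 15.4 to 473 that covers counting error only (edgeR adjusted p = 0.012). COL11A1 passed the filter through the wild type libraries alone, where it is high. Its test and its place among the members that fell therefore support nothing further. Its call was lost without overexpressing replicate 2 or 3 (largest adjusted p 0.061) and held without replicate 1 of both groups (0.028).

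Of 11 fibrillar collagens, 5 were too low to test, among them COL24A1, whose counts are given below. Besides COL11A1, the fibrillar collagens were low, and none that was tested was called. Per length COL27A1 was the most abundant of them, at 17.5 ± 4.28 CPM in wild type against 19.9 ± 3.84 CPM with MTSS1 overexpressed (SD, n = 3; log2 0.18 ± 0.20, edgeR adjusted p = 0.71). The classic stromal collagens COL1A1 (2.49 ± 0.457 and 3.02 ± 1.05 CPM), COL3A1 (0.739 ± 0.401 and 0.903 ± 0.436) and COL5A2 (2.11 ± 0.462 and 2.48 ± 0.402) had overlapping ranges. COL1A2, the partner chain of COL1A1, had 0, 28 and 16 counts in wild type libraries, against 0, 36 and 15 with MTSS1 overexpressed. Both libraries of replicate 1 were thus at 0, as for COL6A3. A count of 0 there allows up to 0.159 CPM in the wild type and 0.220 CPM in the overexpressing one, against 0.60 to 1.38 CPM in the other 4 libraries. The leukocyte marker LYZ had the same pattern (0.0530 and 0 CPM in replicate 1, 0.961 to 1.42 CPM elsewhere). PTPRC was low in replicate 1 as well (0.265 and 0.0734 CPM, 0.450 to 1.23 elsewhere), and CD3E had few counts. The leukocyte markers CD68 (1.27 and 0.734 CPM, 0.760 to 1.55 elsewhere) and CD79A (0.265 and 0.588 CPM, 0.346 to 1.06 elsewhere) did not have the pattern. The part of other cells in these counts was not tested. COL2A1 and COL5A1 had 22 and 11 counts in all, and COL5A3 had none. COL11A2 also had no count, but it lies in the stretch of chromosome 6 around the major histocompatibility complex, where 78.8% of protein-coding genes are at 0, against 18.9% elsewhere, so its 0 is only a listed value.

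**Figure D3:**
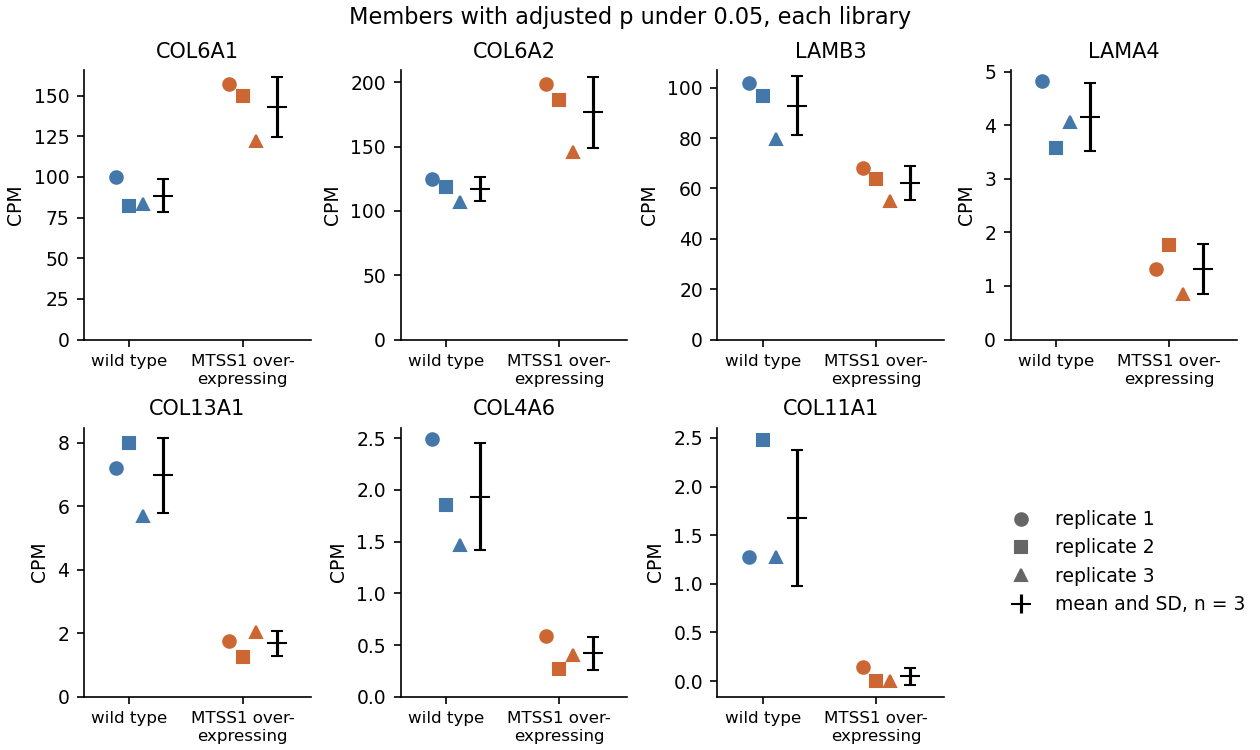
CPM of each called member in the 3 wild type and the 3 overexpressing libraries, with the mean and SD of each group (n = 3). The groups do not overlap in any panel: COL6A1 and COL6A2 are higher in the overexpressing libraries, and LAMB3, LAMA4, COL13A1, COL4A6 and COL11A1 are lower.

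Among the remaining collagens, COL12A1 and COL18A1 were the most abundant per length. COL12A1, which decorates fibrils, stood at 100, 104 and 99.7 CPM in wild type libraries, against 130, 71.9 and 141 CPM with MTSS1 overexpressed. The overexpressing libraries lay on both sides of a tight wild type group (log2 0.18 ± 0.20, edgeR adjusted p = 0.71), with replicate 2 the low one. COL18A1, the basement membrane collagen from which endostatin is cut, stood at 62.1 ± 7.09 and 72.1 ± 10.9 CPM (log2 0.22 ± 0.13, adjusted p = 0.40). Of its exon bases, 16.4% also lie in exons of SLC19A1 on the other strand, and the strand setting of the counting is not given in the sources used here. COL16A1, a fibril-associated collagen, stood at 3.92, 3.87 and 3.60 CPM against 2.79, 1.96 and 2.40 CPM. Its ranges were apart, and it was called with the replicate block but not in the unblocked fit to all 6 libraries (log2 -0.68 ± 0.24, edgeR adjusted p = 0.15, blocked 0.044). COL7A1, the anchoring fibril collagen, had nearly equal means (4.50 ± 0.865 and 4.62 ± 0.696 CPM, log2 0.04 ± 0.23, adjusted p = 0.94).

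Laminin chains did not move together. LAMC1, LAMB1 and LAMB2, which enter most laminin trimers, differed little, while LAMB3 and LAMA4 fell. LAMA3 and LAMB3 encode chains of the epithelial laminin of the hemidesmosome. LAMB3 (ENSG00000196878, chromosome 1, 209614870 to 209652466) stood at 102, 96.6 and 79.7 CPM in wild type libraries, against 68.2, 63.6 and 55.0 CPM with MTSS1 overexpressed. The groups did not overlap, and the level fell 1.49-fold (log2 -0.58 ± 0.12, edgeR adjusted p = 0.028). The alpha chain LAMA3 stood at 11.7, 20.0 and 12.5 CPM against 12.2, 13 and 12.4 CPM (log2 -0.24 ± 0.20, adjusted p = 0.58). Only wild type replicate 2 stood out, and without it the value was 0.05. LAMB3 lost its call without wild type replicate 1 or 2 or overexpressing replicate 2 or 3 (largest adjusted p 0.10), and without replicate 1 of both groups (0.11).

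LAMA4, the alpha chain of vessel and stromal laminins, stood at 4.83, 3.57 and 4.05 CPM in wild type libraries, against 1.32, 1.77 and 0.841 CPM with MTSS1 overexpressed. Every overexpressing library was lower, and the level fell 3.15-fold (log2 -1.65 ± 0.32, edgeR adjusted p = 0.024). The adjusted p was 0.052 against the 50 nearest genes and 0.16 without replicate 1 of both groups. It lost its call when any 1 library but overexpressing replicate 2 was left out (largest 0.085). LAMA5, the broad epithelial alpha chain, stood at 64.6, 66.8 and 47.6 CPM against 47.1, 41.6 and 35.7 CPM. The highest overexpressing library was just below the lowest wild type library. The edgeR call was made with the replicate block but not in the unblocked fit (log2 -0.53 ± 0.15, edgeR adjusted p = 0.082, blocked 0.00051). LAMA2, the alpha chain of muscle and nerve, stood at 46.8 ± 11.2 and 54.2 ± 3.62 CPM (log2 0.21 ± 0.15, adjusted p = 0.52). Per length, LAMA2 went from 44.7% to 57.5% of all laminin alpha chain RPKM and LAMA5 from 41.6% to 31.8% (means, n = 3).

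The common chains had log2 fold changes near 0. LAMC1 stood at 198 ± 10.6 and 189 ± 5.92 CPM (SD, n = 3; log2 -0.07 ± 0.08, edgeR adjusted p = 0.68). LAMB1 stood at 127 ± 4.93 and 121 ± 5.29 CPM (log2 -0.06 ± 0.08, adjusted p = 0.74). LAMB2 stood at 76.8 ± 13.4 and 77.4 ± 12.2 CPM (log2 0.01 ± 0.15, adjusted p = 0.98), and its sign changed with the setting. LAMC3, a low gamma chain, was higher in every overexpressing library (7.11 to 9.07 against 10.4 to 11.2 CPM) without passing the test (log2 0.37 ± 0.15, adjusted p = 0.21, blocked 0.054). LAMA1 had 10 counts in wild type libraries, against 1 with MTSS1 overexpressed, and LAMB4 had 3 and 2.

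**Figure D4:**
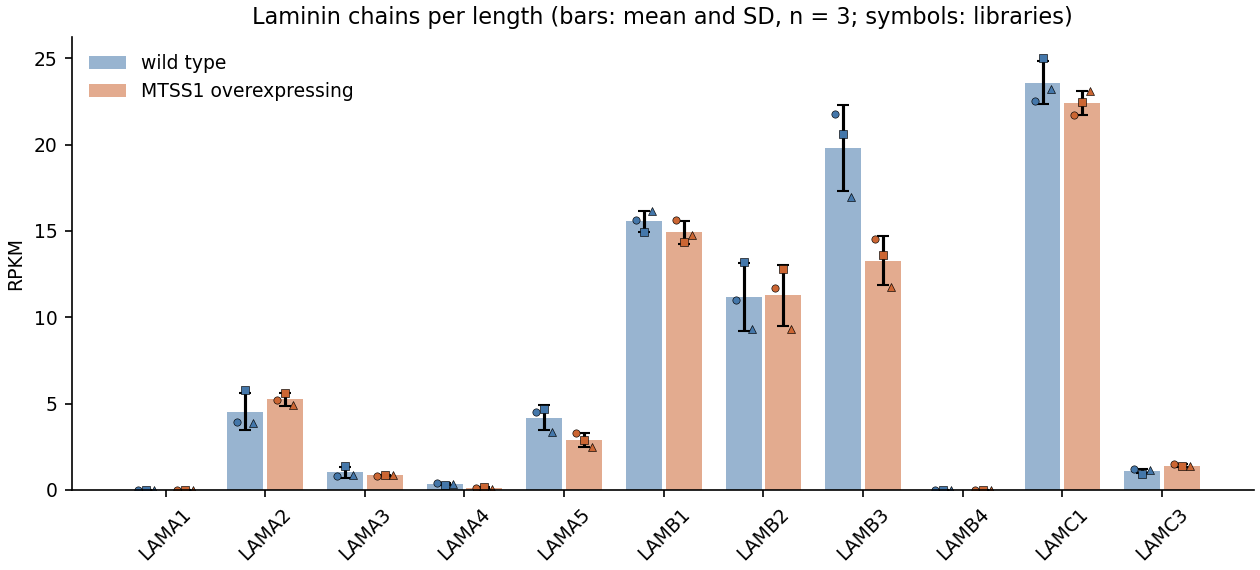
Level per length (RPKM) of laminin chains as group mean and SD (bars, n = 3), with each library as a symbol. The bars of LAMC1, LAMB1 and LAMB2 differ little between the groups, and the overexpressing libraries lie below the wild type libraries for LAMB3, LAMA5 and LAMA4.

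The proteins that link the laminin and collagen IV networks did not pass the test. NID1 was level at 42.9 ± 2.41 and 42.8 ± 2.34 CPM (SD, n = 3; log2 -0.01 ± 0.09, edgeR adjusted p = 0.98). NID2 stood at 2.92, 4.0 and 3.87 CPM against 5.51, 6.50 and 4.04 CPM, just apart (log2 0.57 ± 0.24, adjusted p = 0.23), and 29.96% of its exon bases also lie in exons of RTRAF on the other strand. Perlecan (HSPG2) stood at 126, 122 and 89.6 CPM against 180, 133 and 122 CPM, with overlap (log2 0.37 ± 0.17, adjusted p = 0.26). Agrin (AGRN) stood at 134, 124 and 98.2 CPM against 117, 90.6 and 84.7 CPM, also with overlap (log2 -0.29 ± 0.14, adjusted p = 0.31). With the replicate block HSPG2 was called higher (0.0038) and AGRN lower (0.0060), so these proteoglycans had opposite signs.

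LOXL2 was the most abundant lysyl oxidase per length. It stood at 124, 115 and 116 CPM in wild type libraries, against 170, 134 and 145 CPM with MTSS1 overexpressed. The groups did not overlap, but the call was missed (log2 0.34 ± 0.10, edgeR adjusted p = 0.091, blocked 0.0019). LOX stood at 7.64, 5.85 and 9.01 CPM against 10.4, 9.65 and 11.6 CPM. Its ranges were apart as well (log2 0.50 ± 0.19, adjusted p = 0.17, blocked 0.017). LOXL1, which acts on elastin, had its highest value in wild type replicate 2 (16.2, 25.9 and 14.3 CPM against 15.3, 12.5 and 12.9 CPM, log2 -0.48 ± 0.22, adjusted p = 0.26). LOXL3 (log2 -0.14 ± 0.23, adjusted p = 0.81) and LOXL4 (0.77 ± 0.68, 0.60) had overlapping ranges and low levels.

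Of the 27 untested members, 5 had no count (COL5A3, COL10A1, COL11A2, COL20A1, COL23A1), 17 had 1 to 30 counts over the 6 libraries and 5 had more. By counting error alone, a count of 0 over all 6 libraries allows a level of up to 0.0214 CPM. The 0 of COL11A2 stays a listed value only. Outside that stretch of chromosome 6, B2M (chromosome 15) had 34 and 23 pooled counts. RPS9 (chromosome 19), a ribosomal protein gene, had 17 and 20, and the reason for these low counts was not tested. COL24A1 had 42 counts in wild type libraries, against 9 with MTSS1 overexpressed (ratio 3.98, exact 95% interval 1.91 to 9.30). COL21A1 had 29 and 1 (ratio 24.7, interval 4.10 to 1011). These intervals cover counting error only. COL9A3 had 10, 62 and 5 counts in wild type libraries, against 5, 10 and 8 with MTSS1 overexpressed, so 1 wild type library held most of them. COL8A1 had 36 and 20 pooled counts, and COL14A1 had 12 and 29.

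Genes that make, bind or accompany these proteins were read from 3 lists. Of 29 tested genes (32 listed) that fold, modify and process collagen, 2 rose and none fell at edgeR adjusted p under 0.05, or 6.90%, near the 4.28% of all genes tested. These were PCOLCE2, an enhancer of procollagen cleavage (16.8 ± 2.63 to 26.1 ± 1.05 CPM, log2 0.64, adjusted p = 0.034), and PXDN, which crosslinks collagen IV (131 ± 9.45 to 170 ± 9.94 CPM, log2 0.37, 0.045). COLGALT1, a collagen galactosyltransferase, had a log2 fold change of 0.44 (0.081), and PPIB, a prolyl isomerase of collagen folding, had -0.26 (0.10). With the replicate block 8 rose and 4 fell, or 41.4%, beside 22.7% of all genes tested. The median over this list was 0.08 (log2).

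The list of collagen and laminin receptors and proteins that act with them had 18 tested genes (20 listed). Of these, none rose and 2 fell, or 11.1%, beside 4.28% of all genes tested. ITGA6, the alpha subunit of laminin-binding integrins, stood at 836, 625 and 856 CPM in wild type libraries, against 502, 366 and 497 CPM with MTSS1 overexpressed. The groups did not overlap (log2 -0.76 ± 0.15, edgeR adjusted p = 0.027). SDC4, a heparan sulfate proteoglycan of the cell surface, fell from 98.2 ± 3.84 to 72.5 ± 6.07 CPM (log2 -0.44, adjusted p = 0.027). ITGA2, a collagen receptor subunit, had -0.63 (0.065) and BCAM, a receptor for LAMA5, had 0.64 (0.067). With the replicate block 3 rose and 6 fell, that is 9 of 18, beside 22.7% of all genes tested. The list's median was -0.10.

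Of 18 tested genes (26 listed) for other basement membrane proteins, 3 rose and 3 fell, or 33.3%, beside 4.28% of all genes tested, and the list's median was 0.18. NPNT, an integrin ligand, rose from 1.77 ± 0.341 to 4.27 ± 0.816 CPM (log2 1.26, edgeR adjusted p = 0.032). FN1, which encodes fibronectin, rose from 35.9 ± 3.40 to 53.3 ± 7.99 CPM (0.57, 0.038), and FRAS1 from 1.38 ± 0.245 to 3.25 ± 0.402 CPM (1.24, 0.041). FREM1, a partner of FRAS1 in one complex, fell from 14.9 ± 1.59 to 9.16 ± 0.841 CPM (-0.70, 0.030). The collagen-binding protein SPARC fell from 4.94 ± 0.884 to 1.48 ± 0.697 CPM (-1.80, 0.022), and EFEMP1, a fibulin, from 0.590 ± 0.0683 to 0.0640 ± 0.0224 CPM (-3.14, 0.025). EFEMP1 passed the filter on low counts through the wild type libraries alone, where it is high, so its test and its place among the genes that fell support nothing further. With the replicate block 5 rose and 6 fell, or 61.1%, beside 22.7% of all genes tested. Each of the 10 called genes of these 3 lists lost its call in at least 4 of the 6 fits that left out 1 library.

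**Figure D5:**
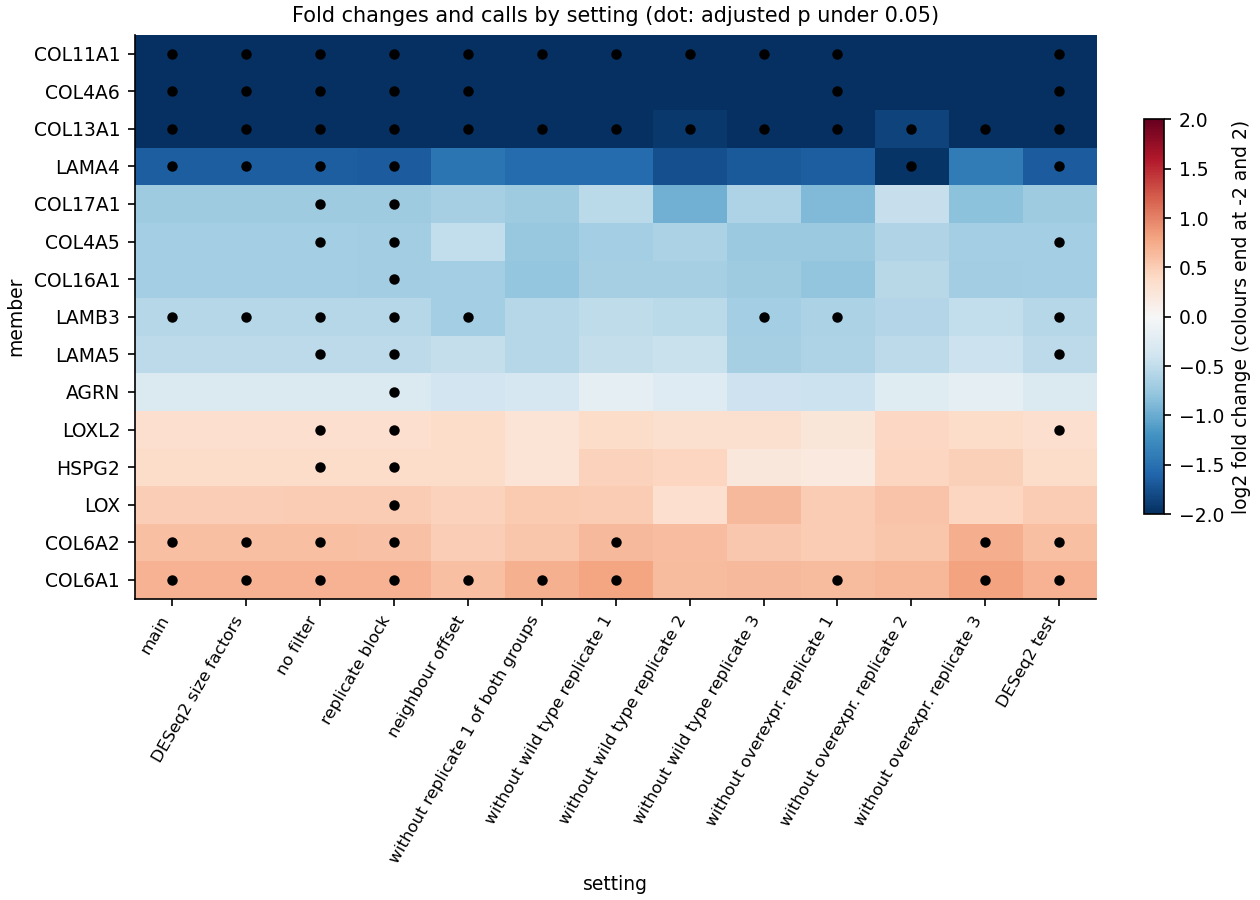
Log2 fold change (colour, ending at -2 and 2) of members called with or without the replicate block, under each processing setting, with a dot where the adjusted p is under 0.05. COL13A1 has a dot in every setting drawn, while COL6A2 has none against the 50 nearest genes (0.50) or without replicate 1 of both groups.

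Calls depended on the libraries more than directions did. None of the 7 called members changed sign under any setting tried, and COL13A1 alone was called in all 6 fits that left out 1 library. Of 19 tested members with a mean of 10 CPM or more, 3 were called (COL6A1, COL6A2, LAMB3), and the other 4 calls came from 19 members below that level. Of all genes tested, 5.13% were called at or above 10 CPM and 3.01% below it. At an unadjusted p under 0.05 the same edgeR test held 16 of the 38 members, beside 19.8% of all genes tested.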

How the data were processed

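RNA was measured in 3 wild type and 3 MTSS1 overexpressing libraries of NCI-H1299 cells. The authors deposited raw counts of reads for each Ensembl identifier. Per the labels' protocols, poly(A) RNA went into a directional kit and was read as single reads of 50 cycles. Per the submitters' processing notes, bcl2fastq, HISAT2 2.1.0, HTSeq and GRCh38 were used. For strand setting and annotation release, nothing is given in the sources used. Overlapping genes therefore cannot be told apart, and 26 members share exon bases with another gene.

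The test was edgeR's (version 4.0.16, R 4.3.3), with TMM scaling, filterByExpr, a two-sided quasi-likelihood test and Benjamini-Hochberg adjustment over 16091 genes at a threshold of 0.05. The filter asked for about 0.392 CPM in at least 3 libraries. Levels are TMM-scaled CPM, or RPKM with GENCODE release 29 exon lengths. The coefficient of biological variation was 0.162. Ratios of pooled counts have exact 95% intervals, and the floor for 0 counts is 3 counts. Intervals and floors cover counting error only, as reads carry no molecular identifiers. The edgeR step was tested on simulated data.

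No label ties neighbouring titles to a shared batch. Deviations from group means correlated over genes at 0.66, 0.34 and 0.38 within neighbouring titles, and at -0.41 to 0.10 otherwise, so blocked values are given.

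Members, lists and classes were chosen with earlier results of these data known. Named were MTSS1, members called with or without the block, the 12 highest by RPKM, chains of collagen IV, collagen VI and common laminins, linkers, lysyl oxidases, and up to 4 genes per related list by smallest adjusted p. Others were named after their values were seen. Alternatives were DESeq2 1.42.0 (size factors or its test), no filter (at least 1 count), the block, an offset by 50 neighbouring genes, and leaving out libraries. Counts cover all members, 1 of which is not reported singly here.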

Additional observations from a re-analysis of the deposited data

How the results depend on the processing

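Across all 16091 genes 688 were called, among the members 2 higher and 5 lower with a median of 0.11 (log2 fold change), and in the 3 related lists 5 higher and 5 lower. With DESeq2's size factors all 38 tested members kept direction and side of the threshold. With no filter on low counts these values were 1489 genes, 4 higher and 10 lower members, a median of -0.18, and 11 higher and 11 lower related genes. With the replicate block by neighbouring titles they were 3651 genes, 5 higher and 11 lower members, and 16 higher and 16 lower related genes. Against the 50 nearest genes they were 330 genes, 1 higher member, a median of 0.043 and 1 higher related gene. Without replicate 1 of both groups they were 132 genes, 1 higher and 2 lower members, a median of 0.018, and 0 higher and 1 lower related genes. With DESeq2's test they were 1253 genes, 3 higher and 7 lower members, and 8 lower related genes. That test had no block and added LOXL2 (DESeq2 adjusted p = 0.033), LAMA5 (0.013) and COL4A5 (0.030). Values not given here moved less. The cause was not tested in any of these, beyond fewer or more genes or libraries in the fit. With 1 library left out at a time the ranges were 145 to 346 genes, 0 to 2 higher and 1 to 4 lower members, a median of -0.069 to 0.15, and 0 to 2 higher and 0 to 3 lower related genes.

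Members not called changed sign in places. Against the 50 nearest genes LAMB2 had -0.039, NID1 0.017 and COL7A1 -0.034, and without replicate 1 of both groups LAMB2 had -0.027. With 1 library left out at a time, log2 fold changes ranged over 0 for LAMB2 (-0.11 to 0.15), COL12A1 (-0.0030 to 0.43), NID1 (-0.040 to 0.042), COL27A1 (-0.018 to 0.29), LOXL3 (-0.27 to 0.030), LAMA3 (-0.38 to 0.048), COL7A1 (-0.11 to 0.14), COL1A1 (-0.052 to 0.45), COL3A1 (-0.048 to 0.83) and COL1A2 (-0.62 to 1.11). Counts were too few in the 27 untested members for a fold change to be tested, and low in the 19 tested members under 10 CPM. The part of depth in this was not tested.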
